A study of Mus musculus with 12 samples.

Results

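The effect of *AhR* deletion on the transcriptome of type II alveolar epithelial (AT2) cells was examined across both treatments of the study. AT2 cells came from *AhRf/f* mice, labelled WT, and from *Sftpc-Cre;AhRf/f* mice, labelled KO, aged 6 to 8 weeks and on a C57BL/6 background. Cells of each genotype were kept on collagen I for 24 h in the presence of PBS or of 50 µg/ml CRE (cockroach extract, an allergen, not the Cre recombinase), which made 4 groups of 3 libraries. All mice carried floxed *AhR* alleles, and in *Sftpc-Cre;AhRf/f* mice Cre is driven by *Sftpc* regulatory elements, so that deletion depends on *Sftpc* activity in the cell. No group of mice with Cre and unfloxed *AhR* was among the samples, so that the effects of Cre and of the deletion cannot be told apart. For each genotype and replicate number, the log2 CPM (counts scaled to library size) of the PBS and the CRE library were averaged, and the 3 *Sftpc-Cre;AhRf/f* averages were compared with the 3 *AhRf/f* averages. All 12 libraries of the series entered, and 20612 of 55450 genes passed the filter on low counts. A log2 difference is *Sftpc-Cre;AhRf/f* minus *AhRf/f* throughout. The CPM of a gene in an average is the geometric mean of its libraries, whereas a level summed over genes is their arithmetic mean.

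AhR is a ligand-activated transcription factor that enters the nucleus, pairs with ARNT and binds xenobiotic response elements with the core GCGTG. Its best known targets are cytochrome P450 genes of the CYP1 family and genes that restrain the receptor, *Ahrr* and *Tiparp*. AT2 cells make and recycle pulmonary surfactant and serve as progenitors of the alveolar epithelium.

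Libraries were sequenced to between 68878065 and 80935797 counts, and no library was identical to another. The libraries held AT2 markers throughout, with *Sftpc*, the gene of surfactant protein C, between 3150 and 6336 CPM in the 6 averages. Another AT2 marker, *Slc34a2*, was at 9.16 to 21.4 CPM in the 12 libraries. Summed levels in the 6 averages were 4790 to 9397 CPM for 12 AT2 markers and 2534 to 3747 CPM for 12 markers of type I cells. Those of 12 markers of Krt8-high transitional cells were 12908 to 16278 CPM. Such sums over different genes do not measure shares of cells. Summed levels of 16 leukocyte markers were high in replicate 1 of either genotype, at 453 CPM in *AhRf/f* and 354 CPM in *Sftpc-Cre;AhRf/f* cells, against 24.8 to 115 CPM in the other 4 averages. The cells had been selected against CD45. Whether replicates came from separate animals is not stated in the labels, and p-values therefore measure the spread between these samples, which may be technical.

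The total of *Ahr* (ENSMUSG00000019256, chromosome 12, 35497974 to 35535038 of GRCm38) did not separate the genotypes. It was 49.2, 47.1 and 47.6 CPM in the 3 *AhRf/f* averages and 50.5, 39.0 and 47.6 CPM in the 3 *Sftpc-Cre;AhRf/f* averages. The groups overlapped, with a log2 difference of -0.08 (SE 0.11) and an adjusted p of 0.985 by limma-trend. The exact two-sided permutation test of the 3 against 3 averages gave p = 0.9, where the smallest possible is 0.1. A count over the whole gene does not show whether a floxed exon is present, and exons were not counted separately, so this total does not check the deletion.

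To show the sequence context of the AhR response, stretches of 100 bases before the RefSeq transcription start are given for 4 classical targets, 2 further genes called lower and 1 gene called higher in *Sftpc-Cre;AhRf/f* cells. They are printed 5′ to 3′ on the strand of the gene with coordinates of GRCm38.p6, and capitals mark GCGTG or its reverse complement CACGC.
Cyp1b1 (chr17:79715062-79715161, - strand): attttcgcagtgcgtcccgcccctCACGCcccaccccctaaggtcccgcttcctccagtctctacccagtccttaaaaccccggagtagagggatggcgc
Cyp1a1 (chr9:57697513-57697612, + strand): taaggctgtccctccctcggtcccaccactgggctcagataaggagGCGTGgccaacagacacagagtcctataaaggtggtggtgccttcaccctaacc
Ahrr (chr13:74292332-74292431, - strand): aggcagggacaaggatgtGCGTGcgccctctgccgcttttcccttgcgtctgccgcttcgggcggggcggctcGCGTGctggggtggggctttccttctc
Tiparp (chr3:65528267-65528366, + strand): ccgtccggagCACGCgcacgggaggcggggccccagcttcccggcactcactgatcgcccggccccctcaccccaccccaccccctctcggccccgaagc
Nqo1 (chr8:107403206-107403305, - strand): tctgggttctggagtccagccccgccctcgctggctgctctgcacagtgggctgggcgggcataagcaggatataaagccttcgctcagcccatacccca
Ces1g (chr8:93337210-93337309, - strand): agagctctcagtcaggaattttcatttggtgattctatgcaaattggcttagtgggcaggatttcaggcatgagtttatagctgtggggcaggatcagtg
Abca5 (chr11:110337717-110337816, - strand): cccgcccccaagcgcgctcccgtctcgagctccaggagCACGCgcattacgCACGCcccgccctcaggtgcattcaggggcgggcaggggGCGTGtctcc
The core lay 76 bases before the start of *Cyp1b1*, 54 before that of *Cyp1a1* and 82 and 27 before that of *Ahrr*. A further core of *Ahrr*, at 107 bases, lies outside its stretch. That of *Tiparp* lay 170 bases before the start, and its stretch was set to begin 180 bases upstream to take it in. The 100 bases directly before the start of *Tiparp* hold no core, whereas the other stretches end at the start. The stretches of *Nqo1* and *Ces1g* hold no core, and that of *Abca5* holds it at 62, 49 and 10 bases. *Selenbp1*, also called lower and not printed, holds it at 181 and 177 bases. In windows from 250 bases before to 50 after the start, on either strand, the core was found for 10 of 15 promoters of AhR target genes (66.7%), 2 of 7 of genes called lower (28.6%) and 2 of 3 of genes called higher. Promoters were available for 7 of the 12 genes called lower and 3 of the 6 called higher, so that these shares do not cover all called genes. The core was found in 46.1% of the 16609 promoters of tested genes and in 32.4% of all 32851 promoters. The longer TNGCGTG, which contains the core, was found in 2 of the 15, 0 of the 7 and 1 of the 3 promoters, against 7.14% for tested genes.

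Pooled over both treatments, 18 of 20612 genes differed between the genotypes by limma-trend with Benjamini-Hochberg adjustment at 0.05. These were 0.0873% of the genes tested. Of them, 12 were lower (0.0582%) and 6 higher (0.0291%) in *Sftpc-Cre;AhRf/f* cells, and 4 of the 12 belonged to a list of AhR target genes. The genes lower were *C130046K22Rik*, *Cyp1b1*, *Ces1g*, *Selenbp1*, *Rdh10*, *Nqo1*, *Acp1*, *2610035D17Rik*, *Xdh*, *Arl6ip5*, *Dynlt1b* and *Gpc1*. Those higher were *Gm10184*, *Abca5*, *Srcap*, *Adi1*, *Mob1a* and *Gm6472*. Before adjustment 1172 genes had a p below 0.05, and 638 of them (3.1%) also had an absolute log2 difference above 0.5, 276 lower (1.34%) and 362 higher (1.76%). The latter rule, which the study used, is called the looser rule below. Over all genes tested, the median log2 difference was 0.0017 and 49.6% of genes were below 0.

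**Figure D1:**
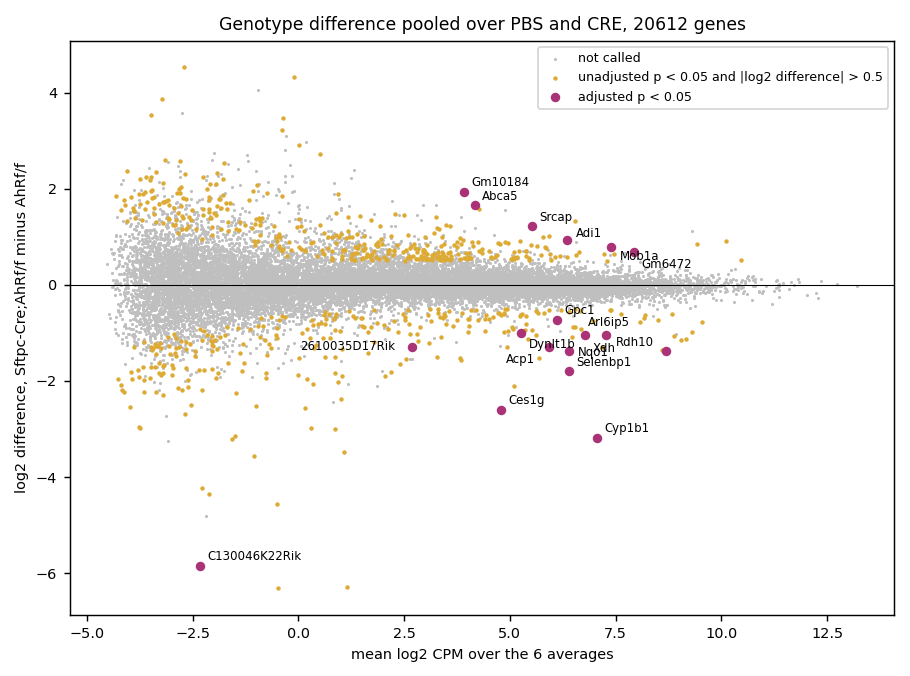
Log2 difference between *Sftpc-Cre;AhRf/f* and *AhRf/f* averages (vertical axis) against mean log2 CPM over the 6 averages (horizontal axis) for the 20612 genes tested, each point a gene. Purple points are the 18 genes called at an adjusted p below 0.05, yellow points the other genes meeting the looser rule, and most large differences at low CPM were not called.

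The number of calls depended on single replicates and on how libraries were treated. With *AhRf/f* replicate 2 or 3 or *Sftpc-Cre;AhRf/f* replicate 3 left out, 0 genes were called, with smallest adjusted p of 0.0616, 0.0659 and 0.0634 and 825, 1157 and 1396 genes at an unadjusted p below 0.05. With *Sftpc-Cre;AhRf/f* replicate 1 left out, 9 genes were called. With all 12 libraries in 1 fit, edgeR's quasi-likelihood test, which took PBS and CRE libraries as independent, called 130 genes and limma-trend with a random effect of replicate called 67, and either set held 16 of the 18. *Srcap* and *Mob1a* were the missing genes in each. In every alternative tried, all 18 genes kept the sign of their log2 difference.

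The largest fall of a protein-coding gene among the calls was that of *Cyp1b1* (ENSMUSG00000024087, chromosome 17, 79701537 to 79715061), a cytochrome P450 that oxidizes polycyclic hydrocarbons and steroids. It stood at 347, 433 and 431 CPM in the *AhRf/f* averages and at 61.4, 32.8 and 43.5 CPM in the *Sftpc-Cre;AhRf/f* averages. All 6 libraries of the latter, at 31.7 to 63.9 CPM, lay below all 6 of the former, at 344 to 465 CPM. The log2 difference was -3.18 (SE 0.22, adjusted p = 0.00992, limma-trend), which is a 9.04-fold lower level. *Selenbp1*, which encodes a methanethiol oxidase that binds selenium, stood at 143, 179 and 154 CPM in *AhRf/f* and at 51.3, 43.0 and 42.7 CPM in *Sftpc-Cre;AhRf/f* averages (log2 difference -1.80, SE 0.11, adjusted p = 0.00741). The ranges of libraries did not overlap for *Selenbp1* either.

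*Nqo1*, a quinone reductase that is also a target of NRF2, stood at 146, 131 and 129 CPM in the *AhRf/f* averages and at 49.1, 61.6 and 47.2 CPM in the *Sftpc-Cre;AhRf/f* averages. The difference was -1.37 on the log2 scale (SE 0.11, adjusted p = 0.0155). *Xdh*, xanthine dehydrogenase of purine breakdown, stood at 160, 170 and 147 CPM against 68.6, 81.2 and 80.8 CPM (log2 difference -1.05, SE 0.09, adjusted p = 0.0199). For each of these genes every *Sftpc-Cre;AhRf/f* library lay below every *AhRf/f* library. Such separation of all 6 from all 6 libraries was seen for 245 of the 20612 genes (1.19%), and for 16 of the 18 called.

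The list of AhR target genes held 19 genes, of which 18 were tested and *Cyp1a2* was not. Of the 18, 4 were called, all lower, 10 were lower and 1 higher by the looser rule, and 16 were below 0, with a median log2 difference of -0.85. The medians were -0.71 under PBS and -0.97 under CRE. The averages of the genotypes did not overlap for 13 of the 18, 12 lower and 1 higher, against 2255 of all genes tested (10.9%). With edgeR in all 12 libraries, 10 of the 18 were called lower and 1 higher, against 90 lower and 40 higher of all 20612 genes. The list was chosen with earlier results of these data known. The study had named members such as *Cyp1a1*, *Cyp1b1*, *Ahrr* and *Ptgs2* as lower on these samples. These contrasts with all genes are therefore not independent evidence.

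Several classical targets had large differences that did not pass the adjusted threshold. *Cyp1a1*, the most widely used reporter of AhR activity, stood at 33.0, 21.3 and 21.2 CPM in *AhRf/f* averages and at 13.1, 6.49 and 6.65 CPM in *Sftpc-Cre;AhRf/f* averages (log2 difference -1.57, SE 0.31, adjusted p = 0.348). The averages of replicate 1 were the highest of either genotype, and the groups did not overlap. *Ahrr*, the AhR repressor, stood at 4.64, 3.97 and 3.17 CPM against 1.67, 0.621 and 0.844 CPM (log2 difference -2.02, SE 0.39, adjusted p = 0.314). *Tiparp*, a mono-ADP-ribosyltransferase that dampens AhR signalling, stood at 130, 136 and 123 CPM against 53.3, 55.9 and 75.2 CPM (log2 difference -1.09, SE 0.14, adjusted p = 0.0932). No library of 1 genotype reached the range of the other for these 3 genes.

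*Ptgs2*, the inducible cyclooxygenase, stood at 753, 600 and 688 CPM in *AhRf/f* averages and at 331, 281 and 369 CPM in *Sftpc-Cre;AhRf/f* averages (log2 difference -1.06, SE 0.12, adjusted p = 0.0767). *Aldh3a1*, an aldehyde dehydrogenase, had a log2 difference of -1.53 (SE 0.22, adjusted p = 0.143), and *Ugt1a6a*, a glucuronosyltransferase whose exons are shared with its neighbours, one of -0.65 (SE 0.10, adjusted p = 0.154). *Serpinb2*, a plasminogen activator inhibitor, was the 1 member of the list that was higher by the looser rule. It stood at 12.8, 8.52 and 12.7 CPM against 37.1, 24.8 and 40.7 CPM (log2 difference 1.59, SE 0.24, adjusted p = 0.154). *Nfe2l2*, the gene of NRF2, had a log2 difference of -0.43 (SE 0.09, adjusted p = 0.432) and *Gsta1*, a glutathione transferase, one of -0.42 (SE 0.14, adjusted p = 0.807). *Ugt1a6b*, *Scin*, *Il1r2*, *Ereg* and *Fgf21* had overlapping averages.

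Outside the target list, enzymes of small-molecule metabolism were among the genes lower. *Ces1g* (chromosome 8, 93302369 to 93337308), a carboxylesterase, stood at 65.5, 80.1 and 59.3 CPM in *AhRf/f* averages and at 14.8, 9.99 and 9.49 CPM in *Sftpc-Cre;AhRf/f* averages (log2 difference -2.60, SE 0.20, adjusted p = 0.00992). *Rdh10*, the retinol dehydrogenase of the first step of retinoic acid synthesis, stood at 555, 728 and 730 CPM against 280, 237 and 250 CPM (log2 difference -1.38, SE 0.13, adjusted p = 0.0209). In both genes the averages of the genotypes lay far apart, and no libraries overlapped. *Acp1*, a low molecular weight phosphotyrosine phosphatase, stood at 85.6, 100.2 and 102 CPM against 36.2, 40.0 and 41.0 CPM (log2 difference -1.29, SE 0.09, adjusted p = 0.00992). *Arl6ip5*, an endoplasmic reticulum membrane protein, stood at 204, 235 and 229 CPM against 107, 112 and 105 CPM (log2 difference -1.04, SE 0.07, adjusted p = 0.00992). The spread within a genotype was small beside the difference for either gene.

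*Gpc1*, a heparan sulfate proteoglycan, had the smallest fall of the calls, from 87.9, 91.2 and 87.1 CPM to 56.4, 53.5 and 51.6 CPM (log2 difference -0.72, SE 0.06, adjusted p = 0.0199). It overlaps *Ankmy1* on the other strand, which was at 0.0263 to 0.282 CPM in *AhRf/f* and 0.295 to 0.495 CPM in *Sftpc-Cre;AhRf/f* averages. *Dynlt1b*, a dynein light chain, stood at 50.7, 56.6 and 56.9 CPM against 27.4, 28.9 and 25.5 CPM (log2 difference -1.01, SE 0.08, adjusted p = 0.0155). It has near-identical neighbouring copies between which reads can be split, and the 4 copies summed had a log2 difference of -0.57. The long non-coding RNA *2610035D17Rik* stood at 10.2, 10.3 and 9.46 CPM against 3.68, 4.17 and 4.47 CPM (log2 difference -1.28, SE 0.13, adjusted p = 0.0367).

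*C130046K22Rik* (chromosome 11, 103697724 to 103722832), a transcript without a coding sequence, was undetected in 1 genotype. It had 63 to 139 counts in the 6 *AhRf/f* libraries and 0 counts in all 6 *Sftpc-Cre;AhRf/f* libraries. A library with 0 counts is compatible with up to 3, so that the level was at least 37.8-fold lower, from a mean of 1.52 CPM in *AhRf/f* libraries against a floor of 3 counts per library (adjusted p = 0.00718, limma-trend). This floor covers counting error only. The neighbouring *Gm11642*, at 103723950 to 103724532, was also at 0 counts in all 6 *Sftpc-Cre;AhRf/f* libraries, with a mean of 0.203 CPM in *AhRf/f* libraries (adjusted p = 0.156).

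Of the 6 genes called higher, 4 separated in all libraries. *Abca5*, a lysosomal ABC transporter, stood at 10.9, 9.57 and 9.94 CPM in *AhRf/f* averages and at 29.9, 32.0 and 33.8 CPM in *Sftpc-Cre;AhRf/f* averages (log2 difference 1.66, SE 0.10, adjusted p = 0.00718). *Gm10184*, a predicted gene, stood at 6.97, 7.86 and 8.24 CPM against 24.1, 32.6 and 32.3 CPM (log2 difference 1.94, SE 0.15, adjusted p = 0.00992). *Adi1*, an enzyme of methionine salvage, stood at 55.9, 63.0 and 58.1 CPM against 109, 113 and 114 CPM (log2 difference 0.92, SE 0.07, adjusted p = 0.00992). These rises were 3.15-, 3.83- and 1.90-fold. *Gm6472*, a processed pseudogene whose reads may belong to its parent gene, had a log2 difference of 0.68 (SE 0.06, adjusted p = 0.0213).

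The calls of *Srcap* and *Mob1a* rested on the averaging of libraries that were far apart. *Srcap*, a chromatin remodeller that deposits histone H2A.Z, stood at 60.2, 12.2 and 13.1 CPM in *AhRf/f* libraries with PBS and at 13.9, 75.6 and 73.6 CPM with CRE, for replicates 1, 2 and 3. In *Sftpc-Cre;AhRf/f* libraries it lay between 65.5 and 72.4 CPM. Each *AhRf/f* average joined a high and a low library and came to 28.9, 30.4 and 31.1 CPM, and the log2 difference was 1.22 (SE 0.06, adjusted p = 0.00718). The high *AhRf/f* libraries overlapped the *Sftpc-Cre;AhRf/f* range, and the adjusted p was 0.627 in PBS and 0.947 in CRE libraries alone. *Mob1a*, a cofactor of kinases of the Hippo pathway, likewise stood at 217, 187 and 76.6 CPM with PBS and at 84.7, 79.3 and 212 CPM with CRE in *AhRf/f* libraries, against 196 to 241 CPM in *Sftpc-Cre;AhRf/f* libraries. Its adjusted p was 0.0229 over the averages (log2 difference 0.78, SE 0.07) and 0.773 and 0.893 in the PBS and CRE libraries alone. The 3 averages per genotype therefore understate the spread between libraries for these 2 genes. *Srcap* overlaps *Gm42715* on the same strand, between which reads can be split, and the latter stood at 82.4 to 88.5 CPM in *AhRf/f* and 58.0 to 73.6 CPM in *Sftpc-Cre;AhRf/f* averages.

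**Figure D2:**
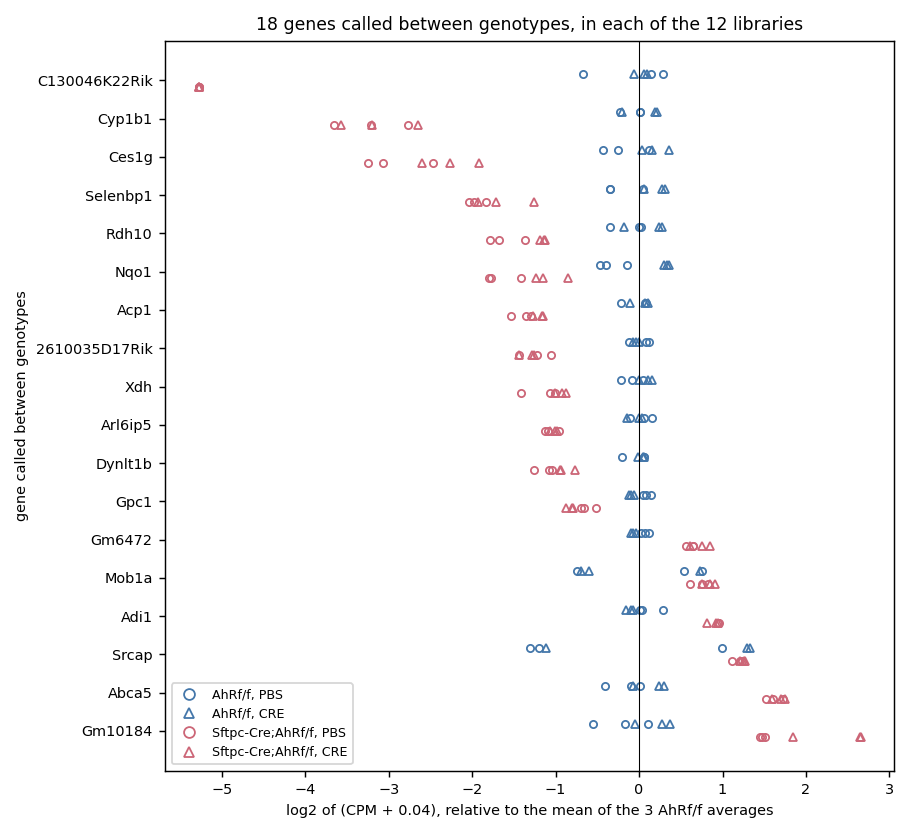
Level of the 18 called genes (rows) in each of the 12 libraries, as log2 of CPM plus 0.04 relative to the mean of the 3 *AhRf/f* averages (horizontal axis). Circles are PBS and triangles CRE libraries. In 16 genes the genotypes do not overlap, whereas the *AhRf/f* libraries of *Srcap* and *Mob1a* lie in 2 clusters.

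The genotype difference had the same sign under PBS and under CRE for all 18 genes. The 18 were called on the averages of these same libraries, so that their agreement between treatments is not independent evidence. Within single treatments, limma-trend called 22 genes with PBS (0.107%) and 25 with CRE (0.121%). Of the 18, 14 were called in both treatments alone and 2, *Srcap* and *Mob1a*, in neither. *Cyp1b1* had a log2 difference of -3.14 under PBS and -3.21 under CRE, and *Nqo1* one of -1.33 and -1.41. *Ces1g* had -2.75 and -2.45, and *Gm10184* 1.69 and 2.19. The median SE over all genes was 0.20 for the pooled difference, against 0.24 within either treatment.

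**Figure D3:**
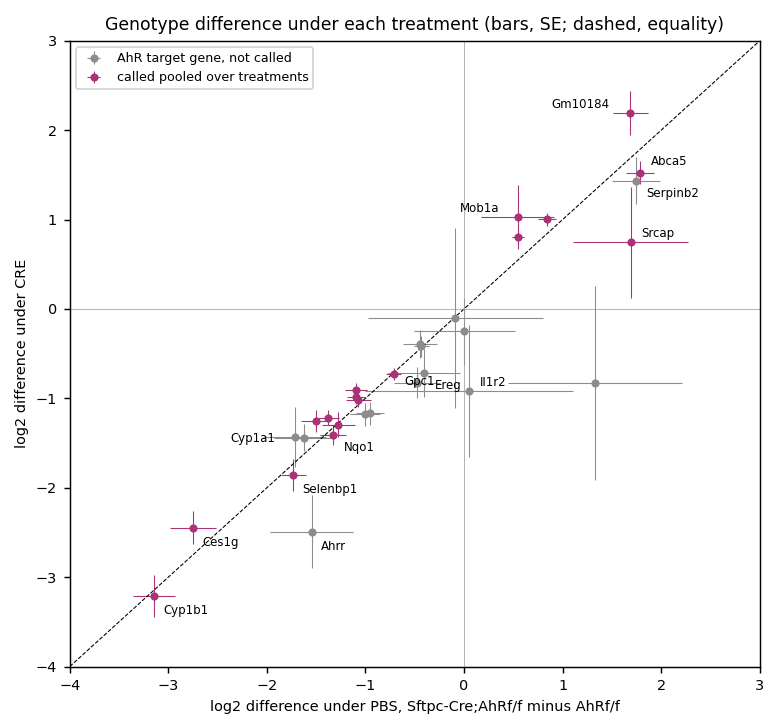
Log2 difference between genotypes under PBS (horizontal axis) and under CRE (vertical axis) for the called genes (purple; *C130046K22Rik*, at 0 counts in 1 genotype, is not drawn) and AhR target genes not called (grey). Bars are SE and the dashed line marks equality. The drawn gene called pooled that lies farthest from it is *Srcap*, and for the others the log2 differences under PBS and CRE are at most 0.50 apart, as for *Gm10184*.

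A test of whether the genotype difference itself differed between PBS and CRE called 0 of 20612 genes (0%), with 2066 genes at an unadjusted p below 0.05 and a smallest adjusted p of 0.371 by limma-trend on the 6 differences. edgeR also called 0, with 763 genes at an unadjusted p below 0.05 without pairing and 1874 with it. Leaving out single replicates gave 0 to 4 calls, and *Srcap* and *Mob1a* were among them without *AhRf/f* replicate 1 and 3, respectively. The 5 genes of smallest unadjusted p were *Actr3*, *Zbtb22*, *Gm28901*, *Sftpc* and *Gm28557*. *Sftpc* was 0.41 lower under PBS and 0.13 lower under CRE on the log2 scale, and in *AhRf/f* cells it was lower with CRE in each replicate, at 6016, 6217 and 5476 CPM with PBS and 5155, 5207 and 4699 CPM with CRE. In *Sftpc-Cre;AhRf/f* cells it stood at 3086, 4591 and 6183 CPM with PBS and at 3216, 4631 and 6492 CPM with CRE. Among the 18 genes, *Gm6472* and *Rdh10* had an interaction p below 0.05 before adjustment but not after (adjusted p = 0.453 and 0.473 by limma-trend), and *Ahrr* was at -1.54 under PBS and -2.49 under CRE (adjusted p = 0.453).

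Genes that act with or beside AhR were examined as lists. Of all 20612 genes tested, 1172 had a limma-trend p below 0.05 before adjustment. By the looser rule 1.34% were lower and 1.76% higher. No gene of 15 AhR partners and chaperones met either rule, and *Arnt*, the dimerization partner, had a log2 difference of -0.05 (SE 0.08, adjusted p = 0.987). All 20 NRF2 antioxidant genes were below 0, with a median of -0.20, but limma-trend on the averages called *Nqo1* alone and 2 met the looser rule, 1 without *AhRf/f* replicate 1 or 3 or *Sftpc-Cre;AhRf/f* replicate 2. DESeq2 on summed libraries, which called 125 lower and 85 higher of all 20612 genes, called 2 of the 20 lower. The summed level of these genes was 16816 to 18425 CPM in *AhRf/f* averages and 14678 to 15999 CPM in *Sftpc-Cre;AhRf/f* averages, without overlap. Of 27 phase II conjugation enzymes tested, 23 were below 0 (median -0.12), 0 were called by limma-trend, 7 had a p below 0.05 before adjustment and 3 were lower by the looser rule. DESeq2 on summed libraries called 4 of the 27 lower. The enzyme *Gstp1*, a glutathione transferase of class pi, stood at 436, 525 and 432 CPM against 260, 310 and 272 CPM (log2 difference -0.73, SE 0.10, adjusted p = 0.143), and its near-identical copies summed with it had a log2 difference of -0.73. Of 30 genes of retinoid and aldehyde metabolism, *Rdh10* alone was called by limma-trend on the averages, and DESeq2 called 4 lower. *Adh7*, an alcohol dehydrogenase that also oxidizes retinol, stood just outside the threshold, at 79.5, 71.3 and 60.8 CPM against 36.6, 31.1 and 35.1 CPM (log2 difference -1.04, SE 0.12, adjusted p = 0.0687), whereas *2610035D17Rik* was the last gene inside it.

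**Figure D4:**
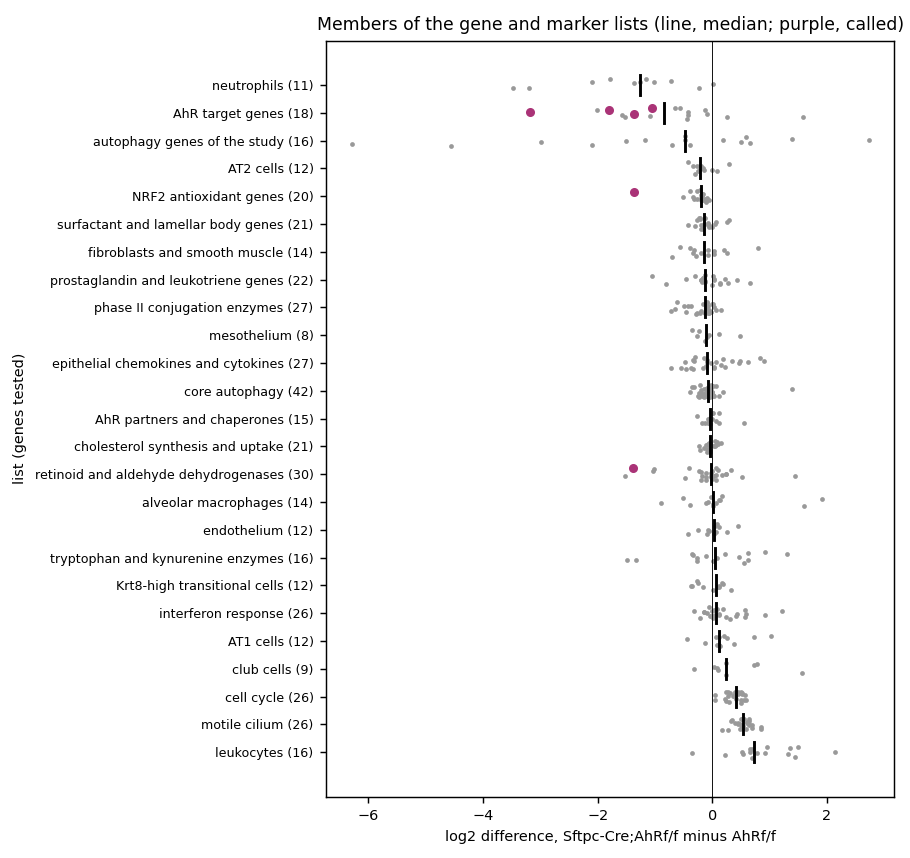
Log2 difference of the tested members (points) of the gene and marker lists (rows, with the number tested), ordered by the list median (black line). Called genes are purple. The AhR target genes have a median of -0.85, with all 4 called members below 0, whereas the cell cycle and motile cilium members lie above 0.

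Autophagy, the process in which cytoplasmic material is enclosed and degraded in lysosomes, was a subject of the study. None of 42 core autophagy genes was called by limma-trend on the averages, with 5 at a p below 0.05 before adjustment and 1 (*Calcoco2*) meeting the looser rule, or 2 genes without *AhRf/f* replicate 2. DESeq2 also called 0, and edgeR in 12 libraries called 1 lower, against 90 lower of all 20612 genes. Of the 42, 34 were below 0, with a median of -0.08. Among all 20612 genes tested, 1172 had a limma-trend p below 0.05 before adjustment, 3.1% met the looser rule and 49.6% were below 0. A list of 16 autophagy genes held those that the study named on these samples, which is not independent evidence of their direction. The study took its genes from CRE-treated cells by the looser rule, and in CRE libraries alone 10 of the 16 met it lower and 6 higher. It also measured *Calcoco2* and *S100a9* by RT-PCR in AT2 cells and stained *Calcoco2* in lung tissue. Over the pooled averages the 16 held 0 called genes, 11 at a p below 0.05 before adjustment, and 5 lower and 4 higher by the looser rule. DESeq2 on summed libraries called 2 of them lower and 2 higher, against 125 lower and 85 higher of all 20612 genes. *Calcoco2*, an autophagy receptor, was counted with 0 to 23 reads in *AhRf/f* and 16 to 51 reads in *Sftpc-Cre;AhRf/f* libraries, and its averages were 0.0936, 0.182 and 0.184 CPM against 0.393, 0.417 and 0.338 CPM (log2 difference 1.38, SE 0.41, adjusted p = 0.713). *S100a9*, an alarmin of neutrophils, stood at 10.2, 15.7 and 2.58 CPM against 1.58, 5.46 and 0.606 CPM, with overlap (log2 difference -2.10, SE 0.94, adjusted p = 0.884). *Bmf*, a pro-apoptotic BCL2 family member, had a log2 difference of -0.70 (SE 0.13, adjusted p = 0.262), *Prkd1*, a protein kinase D, one of 0.66 (SE 0.13, adjusted p = 0.314) and *Sh3bp4*, an endocytic adaptor, one of 0.58 (SE 0.16, adjusted p = 0.645).

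The *Trim* genes among them are neighbours on chromosome 7, where 8 tested *Trim* genes lie between 104218793 and 104507849, and their pattern followed replicates as well as genotype. *Trim12a* had 1228 to 1735 counts in the *AhRf/f* libraries, 668 and 689 counts in *Sftpc-Cre;AhRf/f* replicate 2, 12 and 0 counts in replicate 1 and 0 counts in both libraries of replicate 3. *Trim30d* had 191 to 388 counts in *AhRf/f* libraries, 163 and 184 counts in *Sftpc-Cre;AhRf/f* replicate 2, and 6, 0, 0 and 0 counts in replicates 1 and 3. *Sftpc-Cre;AhRf/f* replicate 2 thus stood between the *AhRf/f* libraries and the other replicates of its genotype for *Trim12a*, and the PBS and CRE libraries of a replicate went together. *Trim34a* was 17.1, 17.4 and 14.4 CPM in *AhRf/f* averages and 4.67, 11.3 and 3.56 CPM in *Sftpc-Cre;AhRf/f* averages, and *Trim5* was 7.07, 4.55 and 4.12 CPM against 0.551, 2.19 and 0.219 CPM, again with replicate 2 the highest of its genotype. *Trim34b*, in the opposite direction, was 0.465, 0.812 and 0.440 CPM against 4.78, 2.71 and 3.71 CPM (log2 difference 2.72, SE 0.35, adjusted p = 0.106), with replicate 2 the nearest to *AhRf/f*. The adjusted p was 0.637 for *Trim34a*, 0.632 for *Trim5*, 0.771 for *Trim12a* and 0.828 for *Trim30d*. With *Sftpc-Cre;AhRf/f* replicate 2 left out, *Trim12a* (adjusted p = 0.0301) and *Trim30d* (adjusted p = 0.0363) were called lower by limma-trend, against 2 averages of their genotype. That replicate was the nearest to *AhRf/f* for these genes, so that the calls follow from its removal and are not separate evidence. The neighbours *Trim12c*, at 15.2 to 18.4 CPM against 17.4 to 20.9 CPM, and *Trim6*, at 4.38 to 4.93 CPM against 5.22 to 6.77 CPM, did not share the pattern. Nor did *Trim30a*, at 9.32, 5.56 and 3.69 CPM in *AhRf/f* averages against 5.74, 3.23 and 2.00 CPM, where the genotypes overlapped and replicate 1 was the highest of each. These genes are paralogs between which reads can be split.

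**Figure D5:**
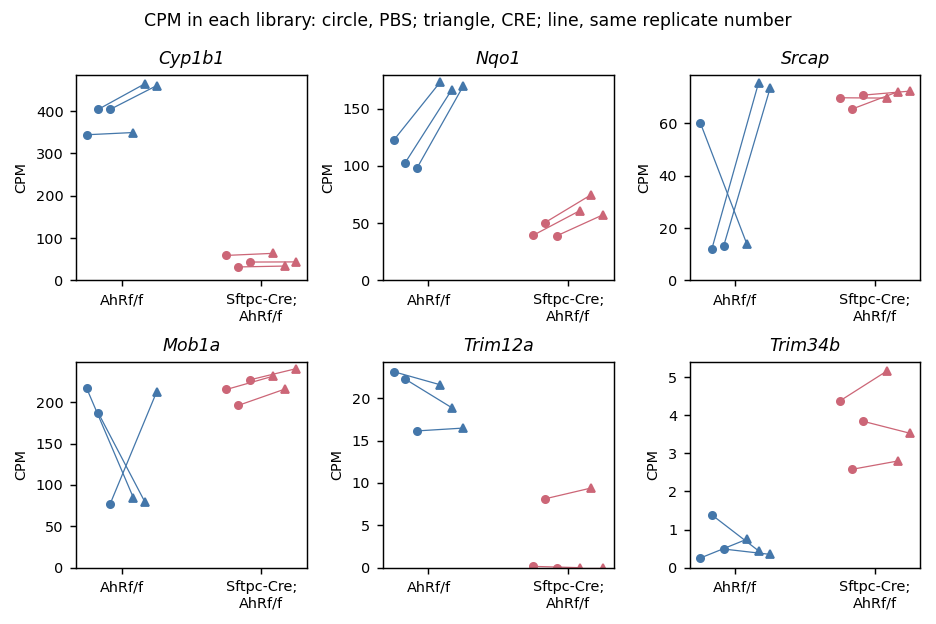
CPM (vertical axis) of 6 genes in each library, with circles for PBS, triangles for CRE, and lines joining the libraries of a replicate number, replicates 1 to 3 from left to right within a genotype. *Cyp1b1* and *Nqo1* separate in all libraries, the *AhRf/f* libraries of *Srcap* and *Mob1a* lie far apart, and *Sftpc-Cre;AhRf/f* replicate 2 of *Trim12a* stands above the other replicates of its genotype.

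Genes of other cell types and states were compared in the same way. Of all 20612 genes tested, 1172 had a limma-trend p below 0.05 before adjustment and 1.76% were higher by the looser rule. All 26 motile cilium genes tested were above 0 (median 0.53). None was called by limma-trend, edgeR or DESeq2, 13 had a p below 0.05 before adjustment and 12 were higher by the looser rule, among them *Foxj1*, the master regulator of motile ciliogenesis (log2 difference 0.64, SE 0.25, adjusted p = 0.872), and *Dnah5*, an axonemal dynein (log2 difference 0.69, SE 0.25, adjusted p = 0.867). Their summed level was 263, 294 and 360 CPM in *AhRf/f* averages and 586, 373 and 380 CPM in *Sftpc-Cre;AhRf/f* averages, and replicate 1 of the latter stood apart. Without it, 1 of the 26 met the looser rule, and without *AhRf/f* replicate 1 or 2 it was 2 and 3. With replicate 1 of either genotype left out together, 0 met it and the median was 0.20. Club cell markers summed to 7503 CPM in that same *Sftpc-Cre;AhRf/f* average, against 4651 and 4948 CPM in the others of its genotype and 4380 to 7145 CPM in *AhRf/f* averages. Its AT2 markers were the lowest, at 4790 CPM against 6753 and 9397 CPM in its genotype and 7573 to 8475 CPM in *AhRf/f* averages. The part of the makeup of the cultures in these values was not tested, and in bulk samples fewer cells of a type and less RNA per cell cannot be told apart.

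For the lists that follow, the shares over all genes tested were 1.34% lower and 1.76% higher by the looser rule. All 26 cell cycle genes were also above 0 (median 0.41), with 0 called by any of the tools, 7 at a p below 0.05 before adjustment and 2, *Foxm1* and *Cdk1*, higher by the looser rule. The latter count ranged from 0 to 15 when single replicates were left out, with 15 without *AhRf/f* replicate 3, 10 without *Sftpc-Cre;AhRf/f* replicate 3 and at most 1 without any of the others. Neutrophil markers had a median of -1.27 over 11 tested genes, 10 below 0, with 3 (*Camp*, *Ltf* and *Ngp*) lower by the looser rule. That count was 1 without *Sftpc-Cre;AhRf/f* replicate 1 or 3 or *AhRf/f* replicate 2, 7 without *Sftpc-Cre;AhRf/f* replicate 2 and 6 without *AhRf/f* replicate 3. They summed to 63.5, 72.3 and 31.9 CPM in *AhRf/f* and 25.9, 30.2 and 9.75 CPM in *Sftpc-Cre;AhRf/f* averages. Leukocyte markers were above 0 for 15 of 16 genes on the log scale (median 0.73), 0 met either rule in the 6 averages, and their sums overlapped, at 24.8 to 453 CPM against 77.0 to 354 CPM. In edgeR on summed counts the median of the same 16 genes was -0.01. Over averages it was -0.33 without *AhRf/f* replicate 3 and 0.20 without *Sftpc-Cre;AhRf/f* replicate 1, but 1.37 without *Sftpc-Cre;AhRf/f* replicate 2 and 2.02 without *AhRf/f* replicate 1, where 7 of the 16 were higher by the looser rule. Of 21 surfactant and lamellar body genes, 0 met either rule (median -0.14), although 2 were lower by the looser rule without *Sftpc-Cre;AhRf/f* replicate 3. Of 26 interferon response genes 2, *Ifit2* and *Ifit3*, were higher by the looser rule (median 0.06), against 1 without *Sftpc-Cre;AhRf/f* replicate 1 and 3 without *AhRf/f* replicate 1. The lowest *AhRf/f* library of *Ifit2* had 68 counts (0.913 CPM), against a median of 944 counts (12.6 CPM) over the 6 libraries of that genotype.

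The 18 called genes lay on 9 chromosomes, none within 1 Mb of another, and 15 of the 18 were protein coding. By chromosome, 3 lay on chromosome 11, 2 on chromosome 12 and 4 on chromosome 17, which held 7.59%, 4.04% and 4.99% of the genes tested. These chromosomes, grouped after the calls were seen, held 9 of the 18 called genes (50.0%) and 16.6% of the genes tested. Chromosomes 1, 6 and 8 held 2 called genes each, and 11 autosomes held no called gene. By the looser rule, 3.5%, 3.0% and 2.9% of the genes tested on chromosomes 11, 12 and 17 differed, against 3.1% of all genes tested. *Ahr* itself lies on chromosome 12 from 35497974 to 35535038, and the 2 genes called there were *Adi1*, at 28675231 to 28682175, and *Acp1*, at 30893326 to 30911589. The genes within 1 Mb of *Acp1* that met the looser rule were *Fam110c*, *Pxdn* and *Slc26a4*.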

How the data were processed

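AT2 cell RNA was sequenced in 12 libraries, 3 for each of 4 groups. The authors made stranded mRNA libraries, aligned reads to GRCm38 with STAR 2.7.2b and counted genes with Salmon, and the deposited counts are whole numbers before any normalization. The deposited FPKM was made by the authors from it and served as an alternative. The study names RefSeq for annotation, whereas all 55450 gene IDs were found in GENCODE M21, from which positions were taken. The 3 counts taken as the floor of a library covered counting error only.

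Genes were filtered with filterByExpr (minimum count 10, by group), scaled with TMM (factors 0.969 to 1.03) and converted to log2 CPM (prior count 2) by edgeR 4.0.16 in R 4.3.3. The 3 against 3 averages were tested with limma-trend (limma 3.58.1) and Benjamini-Hochberg adjustment at 0.05 over all 20612 genes, and the interaction on the differences CRE minus PBS. CRE and PBS libraries of a number deviated together over 14330 genes (correlations 0.302 to 0.732), so that 3 averages and not 6 libraries were the replicates. Alternatives were edgeR, DESeq2 1.42.0, a random effect of replicate, RLE, library size alone, a prior count of 0.5, no filter, 1 CPM in 3 libraries, log2(FPKM + 1), the replicate number as a term, single treatments and leaving out replicates. The scripts were tested on simulated data. Named genes were *Ahr*, the called genes, members of the lists and the 5 genes of smallest interaction p. The neighbours of called or listed genes, *Gm11642*, *Ankmy1*, *Gm42715*, *Trim12c*, *Trim6* and *Trim30a*, were added after their values were seen. The comparison, the genes and the lists were chosen with earlier results of these data known. Sequences are from RefSeq, in which promoters matched 13100 of the tested genes. Python 3.11.15 with matplotlib 3.10.9 drew the figures.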

Additional observations from a re-analysis of the deposited data

How the results depend on the processing

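The 18 calls became 210 with DESeq2 on summed libraries, 130 with edgeR and 67 with a random effect of replicate in 12 libraries, and 0 with the replicate number as a term across genotypes (replicate block). Same-numbered averages of the genotypes had correlations of deviations of 0.513, 0.0316 and 0.168 for replicates 1, 2 and 3, against up to 0.382 for different numbers. Replicate 1 alone lay above the latter, so that these values do not settle whether the numbers pair the genotypes. Under the block, 1192 genes had an unadjusted p below 0.05 by limma-trend, and the smallest adjusted p was 0.0675. Leaving out single averages gave 0 to 15 calls. With replicate 1 of either genotype left out together, which was added after seeing the data, 13 genes were called, 9 of them among the 18. RLE, library size alone, a prior count of 0.5, no filter, 1 CPM in 3 libraries and log2(FPKM + 1) gave 18 to 21 calls and kept all 18. edgeR on summed libraries called 16 genes, 15 of the 18.

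The 638 genes of the looser rule became 1000 without a filter, 384 at 1 CPM in 3 libraries and 200 with log2(FPKM + 1), and 505 to 853 without single averages. The interaction count of 0 became 0 to 4 without single replicates. The log2 difference of *Ahr* was 0.0339 in PBS libraries only and lay between -0.15 and, without *Sftpc-Cre;AhRf/f* replicate 2, 0.0335 when single averages were left out. Depth limits genes of few reads, such as *Calcoco2* with 0 to 51 counts per library.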
